A study of Mus musculus with 6 samples.

Results

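Claudins are the membrane proteins that form the strands of tight junctions, the seals between neighbouring epithelial cells, and the choice of claudin sets how leaky a seal is and to which ions. The 9 genes described here (Cldn1, Cldn2, Cldn3, Cldn4, Cldn6, Cldn7, Cldn10, Cldn12 and Cldn23) are claudins of epithelia, taken by their symbols from the 46983 genes of a mouse count table. The list was chosen by symbol with the measured levels and log2 fold changes of the high against low glucose comparison known, so the differences of its genes between the groups are given as a description, without a test. All 9 were found and all 9 passed the filter on low counts. The table held 24 further claudin genes, of which 3 passed the filter.

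The libraries were made from polyadenylated RNA of isolated islets of wild-type mice, labelled as beta cells and pancreatic islets. The islets were kept for 24 h in CMRL medium at low (non-stimulating) glucose, 3 libraries, or at high (stimulating) glucose, 3 libraries. Sources used here do not give the glucose concentrations or the strain, age and number of the mice. No label states that replicate libraries derive from different mice or cultures, so each p-value reflects only library-to-library spread, which may be technical. The series asks about redox signaling and the adaptation of beta cells to glucose.

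Levels are given as RPKM, here TMM-scaled CPM (counts of a gene per 1000000 counts of the library) divided by the length of the merged exons in kilobases. TMM is edgeR's scaling for differences in library makeup. Totals ran from 10596020 to 15846235 counts. In edgeR's quasi-likelihood test 27.5% of the 13996 genes tested passed an adjusted p of 0.05, 13.3% higher and 14.2% lower at high glucose, and the groups did not overlap for 45.9%. The makeup of the libraries differed. The 17 acinar markers took 43.4% to 57.8% of the counts at low and 11.5% to 22.9% at high glucose, and 14 of them fell. All 15 intestinal markers fell, with summed levels of 2149 to 6386 CPM at low and 158 to 224 CPM at high glucose. Of the 8 beta-cell markers 3 fell (Slc30a8, Pdx1 and Mafa), and the list, with Ins1 and Ins2, summed to between 25576 and 33295 CPM at low and between 17675 and 39626 CPM at high glucose. Fewer cells of a type and less RNA per cell cannot be told apart in such libraries.

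Cldn4 was the most abundant claudin at high glucose, and the stretch before its start site is shown beside those of Cldn3, its nearest neighbour among the 9, and of Cldn10 (the first of its 2 listed start sites), the 1 member that was lower at high glucose. The sequences are from the RefSeq promoter table on GRCm38.p6, which held 8 of the 9 genes (Cldn23 was missing), and each covers the 250 bases before a start site, 5′ to 3′ on the gene's strand. Capitals mark the AP-1 motif TGANTCA, which reads the same on both strands.
Cldn4: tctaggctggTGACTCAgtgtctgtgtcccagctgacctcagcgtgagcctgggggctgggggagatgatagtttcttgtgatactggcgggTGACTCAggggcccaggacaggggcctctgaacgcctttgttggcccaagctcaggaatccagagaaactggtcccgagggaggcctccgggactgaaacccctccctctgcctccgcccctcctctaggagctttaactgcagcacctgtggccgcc
Cldn3: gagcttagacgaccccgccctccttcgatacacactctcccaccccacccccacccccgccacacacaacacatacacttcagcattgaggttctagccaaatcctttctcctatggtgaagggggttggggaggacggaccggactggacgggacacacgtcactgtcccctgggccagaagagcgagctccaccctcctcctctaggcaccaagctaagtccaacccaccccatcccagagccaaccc
Cldn10: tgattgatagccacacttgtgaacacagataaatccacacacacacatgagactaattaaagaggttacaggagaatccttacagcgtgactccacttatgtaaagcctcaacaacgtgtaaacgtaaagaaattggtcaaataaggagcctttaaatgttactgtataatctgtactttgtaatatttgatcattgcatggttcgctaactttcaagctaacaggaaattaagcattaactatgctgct
The Cldn4 stretch is chr5:134946935-134947184 on the minus strand. It holds the motif at 240 and at 158 bases before the start site. The Cldn3 stretch is chr5:134985964-134986213 and the Cldn10 stretch chr14:118787621-118787870, both on the plus strand, and neither holds these letters. Of 32851 promoters in the table, 6.75% held the motif at least once in the same 250 bases and 0.338% held it 2 or more times. A GC box, a TATA box and a STAT motif were looked up too and are not shown, so these shares do not measure how rare the find is. The AP-1 motif was picked after the sequences had been seen, a match is not evidence of binding, and no other stretch of the 8 matched members held it. Of the claudins outside the list, only the 3 that passed the filter were looked up, and only Cldn15 had a stretch there. Cldn15, which was lower at high glucose, held the motif 1 time, at 214 bases before its listed start site. That site lies 1253 bases from the GENCODE start of the gene, and the stretch overlaps a Cldn15 exon.

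Cldn4 encodes a sealing claudin of many simple epithelia that is also known as a receptor of a Clostridium enterotoxin. It is a gene with 1 exon on chromosome 5 (134945119 to 134946934, GRCm38, ENSMUSG00000047501). Its level was 22.7, 14.6 and 9.78 RPKM in low glucose replicates 1 to 3 and 291, 968 and 836 RPKM in high glucose replicates 1 to 3. The groups were far apart, since the lowest high glucose library held 12.8 times the level of the highest low glucose library. High glucose replicate 1 was the lowest of its group. The reads behind these levels were 493, 159 and 113 at low and 14923, 35196 and 30116 at high glucose. Among all genes tested, ranked by RPKM, Cldn4 stood at 935, 1801 and 2708 in the low and at 60, 37 and 41 in the high glucose libraries. On the log2 scale the difference (high minus low glucose, ± SE) was 5.47 ± 0.59, and the group means differed 44.5-fold. It was 6.43 with library totals as the scaling, where the median of all genes moved from 0.01 to 1.16.

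Cldn3, which lies 39280 bases from Cldn4, encodes another sealing claudin and enterotoxin receptor. It had 28.9, 36.8 and 35.1 RPKM at low and 44.3, 134 and 125 RPKM at high glucose, a log2 fold change of 1.59 ± 0.39. The groups did not overlap, but high glucose replicate 1 lay only 1.20 times above the highest low glucose library. Cldn3 shares 3.18% of its exon length with Wbscr25 on the other strand; no strand setting is stated, so reads of the 2 genes cannot be told apart there. Cldn7 (chromosome 11, 69964779 to 69967885), a claudin that binds the adhesion protein EpCAM, had 28.5, 28.1 and 17.4 RPKM at low and 36.6, 65.2 and 60.1 RPKM at high glucose. Its log2 fold change was 1.13 ± 0.28, again without overlap.

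**Figure D1:**
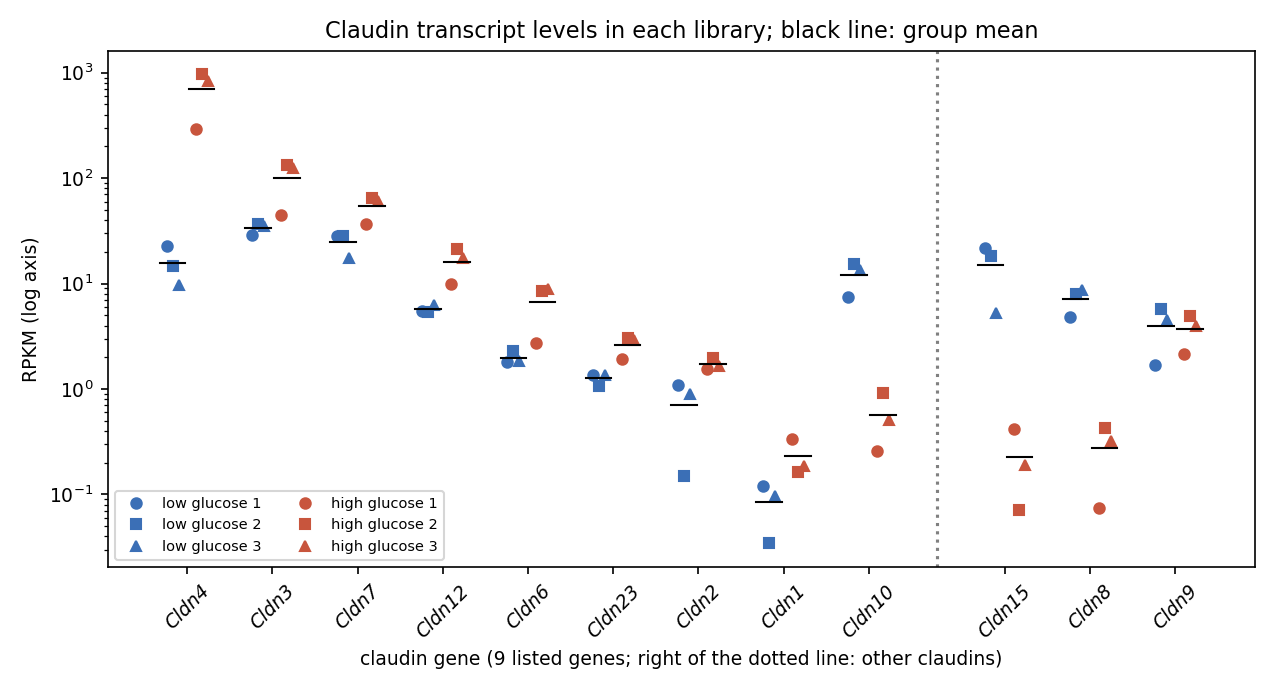
RPKM (log axis) of the 9 listed claudin genes and, right of the dotted line, the 3 other claudins that passed the filter, with 1 point per library (blue low, red high glucose, marker shape for the replicate) and a black line at the group mean. Cldn4 stood above all other claudins at high glucose with a mean of 698 RPKM, and Cldn10, Cldn15 and Cldn8 lay below their low glucose libraries.

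Cldn12, a claudin without the usual PDZ-binding tail, was the least variable member at low glucose. It had 5.46, 5.43 and 6.21 RPKM there and 10.01, 21.1 and 17.5 RPKM at high glucose, with a log2 fold change of 1.51 ± 0.27. The coefficient of variation between libraries was 7.77% at low and 35.0% at high glucose. Cldn6, a claudin best known from embryonic epithelia, had 1.80, 2.32 and 1.83 RPKM at low and 2.75, 8.44 and 8.81 RPKM at high glucose, a log2 fold change of 1.75 ± 0.46. Cldn23 had 1.36, 1.08 and 1.36 RPKM at low and 1.91, 3.05 and 2.94 RPKM at high glucose, with a log2 fold change of 1.05 ± 0.31. In each of these genes the groups did not overlap, and high glucose replicate 1 was the lowest of its group. Low glucose counts were few for Cldn6 (37, 24 and 20) and Cldn23 (30, 12 and 16).

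The pore-forming claudin gene Cldn2 and the barrier claudin gene Cldn1 also rested on few reads. Cldn2 had 43, 3 and 19 counts at low and 145, 130 and 109 at high glucose, or 1.08, 0.150 and 0.899 against 1.54, 1.95 and 1.65 RPKM. The low glucose libraries were spread widely, with a coefficient of variation of 69.5%. Cldn1 had 7, 1 and 3 counts at low and 46, 16 and 18 at high glucose, no more than 0.336 RPKM in any library. The log2 fold changes were 1.22 ± 0.54 for Cldn2 and 1.35 ± 0.54 for Cldn1.

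Cldn10 was the member that was lower at high glucose. It encodes ion-selective pore claudins, with isoforms from separate start sites that gene counts do not tell apart, and lies on chromosome 14 (118787908 to 118875489). It had 7.53, 15.5 and 13.5 RPKM at low and 0.259, 0.925 and 0.506 RPKM at high glucose. The lowest low glucose library held 8.14 times the level of the highest high glucose library. The log2 fold change was -4.45 ± 0.50, and -3.25 with library totals. Counts were 233, 241 and 222 at low and 19, 48 and 26 at high glucose.

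By edgeR's adjusted p, 6 of the 9 were called higher, against 13.3% of all genes, and 1 lower, against 14.2%. Cldn1 and Cldn2 were not called. The groups did not overlap for any of the 9, against 45.9% of all genes. Since the same values chose the members, nothing is read from these counts. The median log2 fold change was 1.35 over the 9 and 0.01 over all genes tested. Without high glucose replicate 1, which was the lowest high glucose library for 8 of the 9, the same number, 6, were called higher. With any other library left out 2 or 3 were. Scaling to hormone and granule genes gave 2, Cldn4 and Cldn12.

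The order of the levels changed between the groups. At low glucose it ran Cldn3 (mean 33.6 RPKM), Cldn7 (24.7), Cldn4 (15.7), Cldn10 (12.2), Cldn12 (5.70), Cldn6 (1.98), Cldn23 (1.27), Cldn2 (0.710) and Cldn1 (0.0843). The libraries of Cldn7 and Cldn4, of Cldn4 and Cldn10 and of Cldn23 and Cldn2 overlapped there, and those of the other neighbours did not. At high glucose the order was Cldn4 (698 RPKM), Cldn3 (101), Cldn7 (54.0), Cldn12 (16.2), Cldn6 (6.67), Cldn23 (2.64), Cldn2 (1.72), Cldn10 (0.563) and Cldn1 (0.229). In that order Cldn3 overlapped with Cldn7, Cldn6 with Cldn23, Cldn23 with Cldn2 and Cldn10 with Cldn1.

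As a share of the summed RPKM of all 33 claudin genes, a measure that needs no scaling between libraries, Cldn4 took 18.0%, 10.7% and 9.32% at low and 74.2%, 80.1% and 79.0% at high glucose. Cldn3 went from 27.8% ± 5.32 to 11.4% ± 0.397 and Cldn7 from 19.9% ± 3.10 to 6.81% ± 2.20 (SD, n = 3 per group). Cldn3 and Cldn7 thus took a smaller share of the claudin transcripts at high glucose although their levels were higher. Together Cldn3, Cldn4 and Cldn7 made up between 58.3% and 63.5% of the claudin level at low and between 94.8% and 96.6% at high glucose. The summed level itself was 126, 136 and 105 RPKM at low and 392, 1208 and 1057 RPKM at high glucose.

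**Figure D2:**
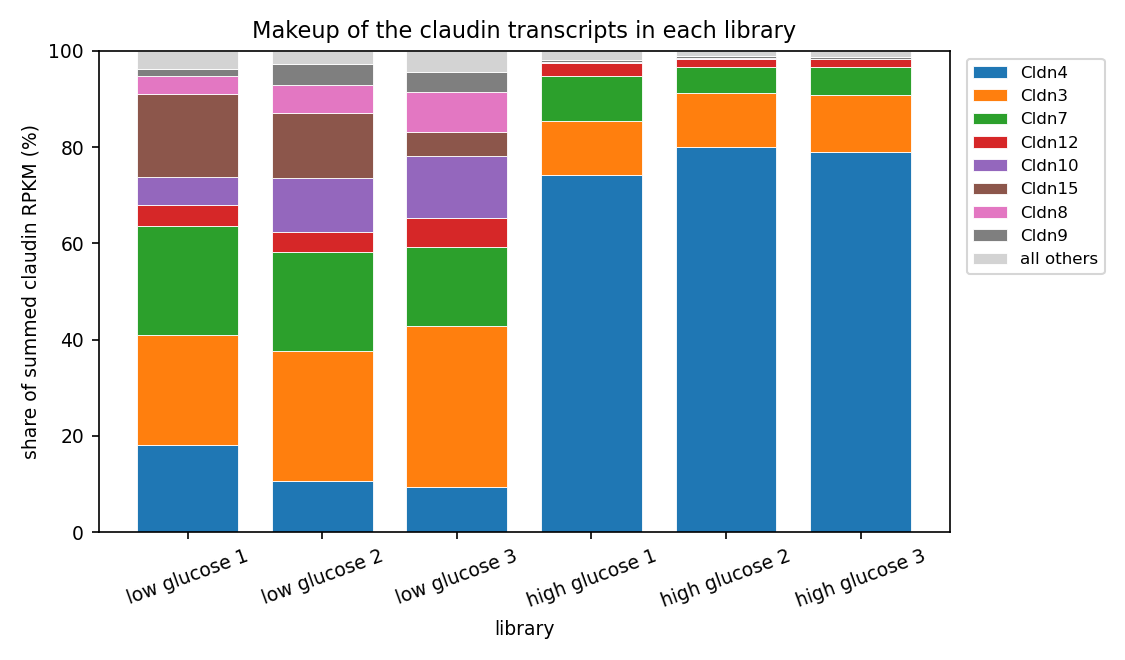
Share of the summed claudin RPKM (%) taken by each gene, with 1 stacked bar per library. Cldn4 grew from 12.7% on average in the low to 77.8% in the high glucose libraries, while Cldn8, Cldn10 and Cldn15 together shrank from at least 26.2% to at most 0.192%.

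Cldn4 was also set against other epithelial genes within each library. Its RPKM ratio to Epcam was 0.247, 0.168 and 0.193 at low and 3.86, 8.68 and 7.74 at high glucose. Against the E-cadherin gene Cdh1, which itself rose (log2 fold change 1.71 ± 0.45, edgeR adjusted p 0.0293), the ratio was 0.399, 0.247 and 0.161 at low and 3.81, 3.33 and 3.93 at high glucose. Against the duct keratin gene Krt19, which itself rose (log2 fold change 2.89), it was 0.535, 0.682 and 0.617 at low and 3.80, 3.68 and 3.29 at high glucose. Each ratio was higher in all 3 high than in all 3 low glucose libraries. Cldn4 was listed with its values known and by itself separated the groups 12.8-fold, so nothing is read from that separation. The 10 duct markers summed to between 499 and 1009 CPM at low and between 613 and 1415 CPM at high glucose. Of them 2 were higher (Krt19 and Krt7) and 3 lower (Bicc1, Pkhd1 and Onecut1), beside 13.3% and 14.2% of all genes. Most of the sum was Muc1 (mean 365 CPM at low and 230 at high glucose), Cd24a (197 and 258) and Krt19 (49.2 and 367). Muc1 and Cd24a were not called. The median log2 fold change of the list was -0.51, so the sum does not speak for the list. The part of the duct markers in the claudin levels was not tested.

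Across the 6 libraries the genes most like Cldn4 in log2 CPM, of 8348 compared, were the chemokine gene Cxcl16 (Pearson r = 0.999), the RNA-processing gene Sart3 (r = 0.998) and the LIM-domain gene Fhl3 (r = 0.998). The points are 2 groups of 3 libraries, so any gene that separates the groups scores high. The log2 fold changes of these genes were 2.43, 0.24 and 3.96.

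Among the claudins outside the listed 9, Cldn15 and Cldn8 fell. Cldn15 (chromosome 5, 136966616 to 136975858) encodes a sodium-pore claudin known from the small intestine. It had 21.6, 18.4 and 5.26 RPKM at low and 0.416, 0.0705 and 0.190 RPKM at high glucose, with no overlap. The drop on the log2 scale was -5.97 ± 0.72 (edgeR adjusted p 0.00186). Cldn8 (chromosome 16, 88560828 to 88563183), a barrier claudin gene, had 4.87, 8.04 and 8.74 RPKM at low and 0.0751, 0.424 and 0.321 RPKM at high glucose. The log2 fold change was -4.75 ± 0.56 (edgeR adjusted p 0.00171). Cldn9, whose gene lies 138 bases from Cldn6 on the opposite strand, did not pass (log2 fold change -0.09 ± 0.50, edgeR adjusted p 0.911). It had 1.68, 5.76 and 4.47 RPKM at low and 2.13, 4.91 and 3.98 RPKM at high glucose, so the groups overlapped, and its sign turned with library totals as the scaling (1.15, edgeR adjusted p 0.042).

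The lower claudins did not follow the same order among the low glucose libraries. Cldn10 and Cldn8 were lowest in low glucose replicate 1, as were the acinar markers (462179, 1018460 and 1017770 summed CPM in replicates 1 to 3, where TMM scaling lets a sum exceed 1000000). The duct (499, 755 and 1009 CPM) and gastric (578, 1413 and 1339 CPM) marker sums were also lowest there. Of the duct markers, Krt19, Krt7, Cftr and Pkhd1 were highest in that library among the low glucose libraries, and the others were lowest in it. These orders depend in part on the TMM factors, which were 0.941, 0.568 and 0.544. Cldn8 had 137, 114 and 131 counts in these libraries. Cldn15 was highest in replicate 1 and lowest in replicate 3, as was the sum of the intestinal markers (6386, 4864 and 2149 CPM). Of these markers Anpep and Agr2 were lowest in replicate 2. The sum of the alpha and delta cell markers had the order of Cldn15 too (6796, 5019 and 4738 CPM), as did that of the mesothelial markers. The low glucose mean was 6.43 times the high glucose mean for the acinar sum and 24.3 times for the intestinal sum. It was 21.6 times for Cldn10, 26.4 times for Cldn8 and 66.8 times for Cldn15 in mean CPM. The part of these cell types in the lower claudins was not tested.

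**Figure D3:**
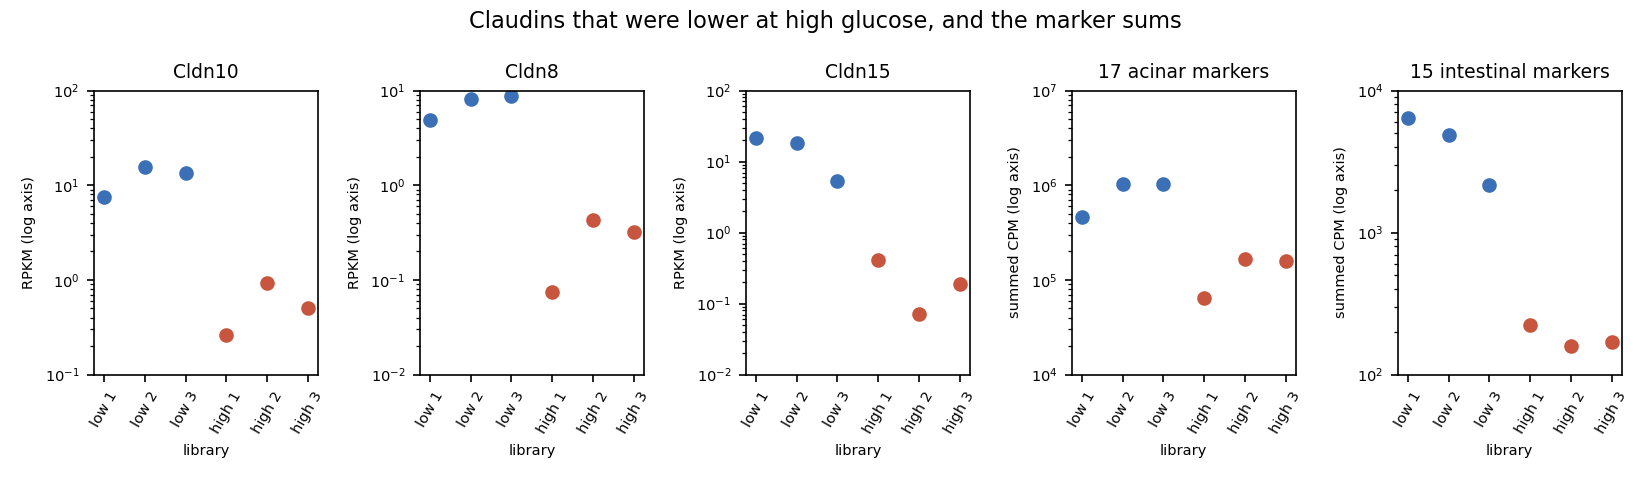
Levels of Cldn10, Cldn8 and Cldn15 (RPKM) and the summed CPM of 17 acinar and 15 intestinal markers in each library (blue low, red high glucose), each on its own log axis. Cldn10 and Cldn8 were lowest in low glucose replicate 1 among the low libraries, as were the acinar markers. Cldn15 was highest in low glucose replicate 1 and lowest in replicate 3, as was the sum of the intestinal markers. Marker sums of other cell types, not drawn here, shared these orders.

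The other components of tight junctions were taken as a list of 38 genes, 37 of which were tested. In edgeR's test 9 of the 37 rose, beside 13.3% of all genes, and 1 fell, with a median log2 fold change of 0.40 against 0.01 over all genes. With the replicate number as a block 12 rose and 3 fell, beside 2197 and 2473 of the 13996 genes tested. The count of higher genes was 2 without low glucose replicate 2, 5 without low glucose replicate 1, 16 without high glucose replicate 1, 3 with hormone and granule gene scaling and 30 with library totals. In the same order, the counts over all genes tested were 708 of 14556, 1102 of 14301, 2793 of 14102, 660 of 13996 and 8337 of 13996.

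Of 11 membrane proteins, 5 rose and 1 fell, beside 13.3% higher and 14.2% lower of all genes. Of 17 scaffold and cytoplasmic genes 3 rose, and of 8 polarity genes 1 rose. F11r, which encodes the junctional adhesion molecule JAM-A, rose from 17.03, 20.04 and 17.4 RPKM to 29.4, 80.4 and 66.9 RPKM (log2 fold change 1.70 ± 0.35). Lsr and Ildr1, which encode angulins of tricellular contacts, rose by 1.21 ± 0.26 and 0.69 ± 0.17, and the remaining angulin gene, Ildr2, fell by 1.49 ± 0.37. Cxadr and Igsf5, which encode adhesion proteins of the junction, rose by 1.61 ± 0.44 and 1.34 ± 0.31. The occludin gene Ocln did not pass (1.22 ± 0.43, edgeR adjusted p 0.0717), but it did with the replicate block (1.03, edgeR adjusted p 0.0345), as did Jam2 (-0.69, edgeR adjusted p 0.0414). Jam2 without the block was -0.66, and 0.52 with library totals.

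Of the scaffold and cytoplasmic genes, Arhgef2, which encodes a guanine nucleotide exchange factor, rose by 1.66 ± 0.34 (edgeR adjusted p 0.0123), and the cingulin gene Cgn rose by 0.94 ± 0.20. Tjp1, which encodes ZO-1, had 10.1 ± 0.408 RPKM at low and 13.3 ± 4.93 RPKM at high glucose (SD, n = 3 per group) and did not pass (0.40 ± 0.26). The RNA-binding protein gene Ybx3 did not pass either (0.68 ± 0.29), but it did with the replicate block (0.73). The polarity gene Crb3, which encodes an apical membrane protein, rose from 9.15, 10.8 and 12.0 RPKM to 16.8, 25.4 and 22.3 RPKM (1.02 ± 0.20, edgeR adjusted p 0.0111). Epcam did not pass (0.36 ± 0.28), with 76.4 ± 22.5 RPKM at low and 98.2 ± 19.9 RPKM at high glucose. Of the calls named here, those of F11r and Arhgef2 were lost without low glucose replicate 2 only, and that of Crb3 with hormone and granule gene scaling only. Those of Lsr, Ildr1, Ildr2, Cxadr, Igsf5 and Cgn were each lost under 2 or more alternatives.

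**Figure D4:**
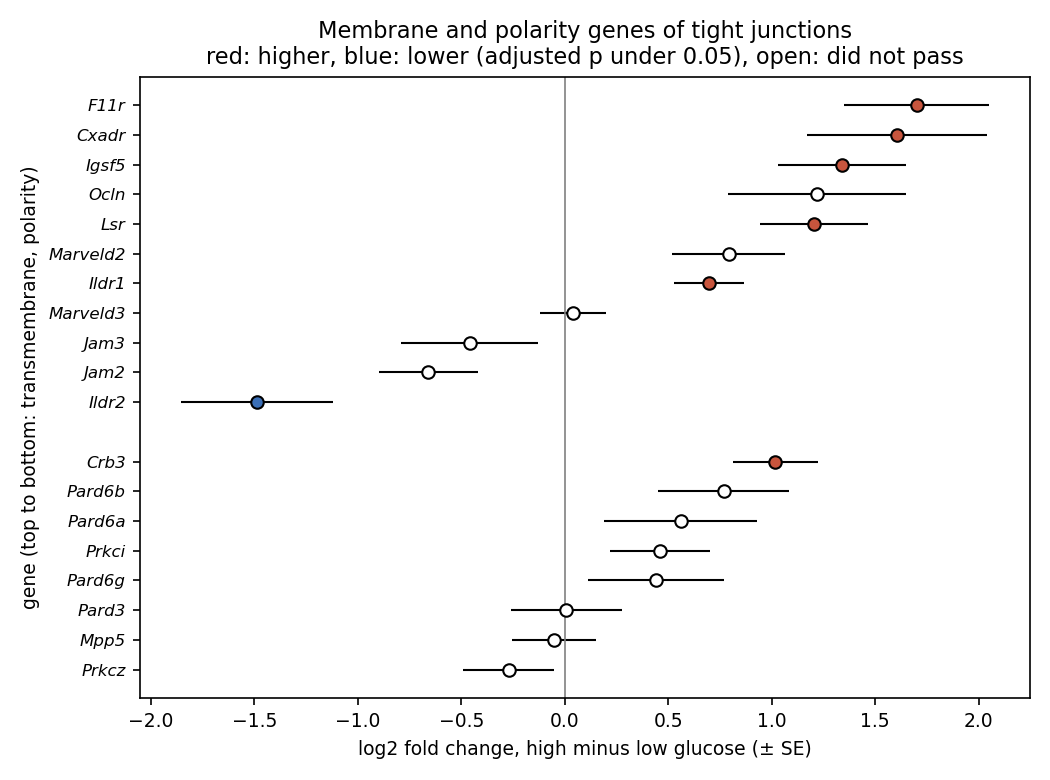
Log2 fold change (high minus low glucose, ± SE) of the 11 tight junction genes for membrane proteins other than claudins and of the 8 polarity genes, in that order from top to bottom. Filled points passed an adjusted p of 0.05: among the membrane proteins 5 were higher (red), from Ildr1 at 0.69 to F11r at 1.70, and Ildr2 at -1.49 was lower (blue), and Crb3 at 1.02 was the polarity gene that was higher.

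In the neighbouring adherens junctions and desmosomes 5 of 21 tested genes rose and 2 fell, beside 13.3% higher and 14.2% lower of all genes. The median log2 fold change was 0.63. The vinculin gene Vcl rose from 3.39, 3.51 and 3.78 RPKM to 6.46, 17.7 and 14.6 RPKM (1.86 ± 0.35, edgeR adjusted p 0.00895), and the plakoglobin gene Jup rose by 1.06 ± 0.23 (edgeR adjusted p 0.0142). Pkp4, a gene of the plakophilin family, fell by 0.87 ± 0.13 (edgeR adjusted p 0.00377), but library totals turned its sign (0.29) and ended the call. The most abundant members that did not pass were the alpha-catenin gene Ctnna1 (0.75 ± 0.25) and Perp (0.51 ± 0.49). The number that rose was 14 without high glucose replicate 1 and 1 or 2 with any other library left out. Over all genes it was 2793 of 14102 without high glucose replicate 1 and 708 to 1282 with any other library left out.

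Of 22 transcription factors and splicing regulators of epithelia, 18 were tested. Among these 2 rose and 1 fell, beside 13.3% higher and 14.2% lower of all genes. Snai1, which encodes a repressor of epithelial junction genes, rose from 0.258, 0.308 and 0.291 RPKM to 2.60, 0.986 and 1.49 RPKM (2.57 ± 0.51, edgeR adjusted p 0.0105) and passed under all 13 alternatives. Its counts were 5, 3 and 3 at low and 119, 32 and 48 at high glucose. Snai1 was highest in high glucose replicate 1, where Cldn4 was lowest of its group, but both were higher at high than at low glucose. A link between the levels of Snai1 and Cldn4 was not tested. Stat3 rose by 0.92 ± 0.23 (edgeR adjusted p 0.0223), and Hnf4a, a regulator of hepatic and intestinal genes, fell by 1.38 ± 0.35 (edgeR adjusted p 0.0255). Both calls were lost without low glucose replicate 1 or 2 or high glucose replicate 3, as well as under scaling to hormone genes. Library totals also ended that of Hnf4a (-0.34). The epithelial factors Elf3 (0.22 ± 0.17) and Klf4 (-0.09 ± 0.37, and 0.94 with library totals) did not pass. With the replicate block 3 of the 18 fell, beside 2473 of the 13996 genes tested, so nothing is read from that count.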

How the data were processed

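The authors deposited raw counts for each gene and library. Tools named in the submitters' processing notes are STAR 2.7.3a, HTSeq 0.6.1p1 and the GRCm38 build; annotation release, strand setting and handling of molecular barcodes are not given in the sources used here. Columns were matched to samples by name. GENCODE M21 (GRCm38) named 46488 of the 46983 genes and gave positions and exon lengths.

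High and low glucose were compared on all genes by edgeR's quasi-likelihood test (edgeR 4.0.16, R 4.3.3) with TMM scaling, filterByExpr (minimum count 10, minimum total 15) and Benjamini-Hochberg adjusted p under 0.05. Each standard error is the size of the log2 value over the root of its F statistic. Log2 CPM used a prior count of 2. Alternatives used limma 3.58.1 (voom), DESeq2 1.42.0, other scalings and filters, and libraries left out.

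The members and lists were chosen with earlier results of these data known. Named genes were all members, other claudins with at least 10 counts, and from each list the 3 smallest p past the threshold and the 2 most abundant that did not pass. Further genes of the lists were named after their values were seen, and some genes that the rule names are not reported here.

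Same-numbered libraries deviated together from their group means (correlations 0.40, 0.26 and 0.25, others at most 0.07), so the numbers may pair the samples. Deviations within a group offset each other, so the low values of the others are not separate evidence. Any pairing comes from the data, not the labels. Unless the replicate block is named, standard errors, adjusted p values and calls are from the fit without pairing. No 2 libraries of a group agreed within sampling noise (chi-square per degree of freedom at least 16.2). Counting error is the only error that read numbers alone cover.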

Additional observations from a re-analysis of the deposited data

How the results depend on the processing

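Cldn8 and Cldn15 kept their direction and passed under all 13 alternatives, including the scaling to hormone and granule genes, which was added after seeing the data. The listed claudins are described by their range over the 13 without a test. The log2 fold change lay between 5.17 and 6.43 for Cldn4, -5.00 and -3.25 for Cldn10, 1.28 and 2.62 for Cldn12, 1.35 and 2.704 for Cldn3, 0.94 and 2.19 for Cldn7, 1.51 and 2.84 for Cldn6 and 0.94 and 2.14 for Cldn23. It lay between 0.94 and 2.48 for Cldn1 and 0.80 and 2.26 for Cldn2. Of the listed claudins 6 were called higher, a count from which nothing is read, 2 with hormone scaling and 2 to 6 with 1 library left out. Over all genes 1861 rose and 1987 fell. Library totals gave 8337 and 628, hormone scaling gave 660 higher, and leaving out 1 library gave 708 to 2793 higher and 1035 to 2892 lower. The median of all genes, 0.01, was -0.00075 with limma-voom, -0.013 with hormone scaling, and -0.019 to 0.035 with 1 library left out.

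Of the tight junction partners 9 rose and 1 fell. Higher counts were 30 with library totals, 3 with hormone scaling and 2 to 16 with 1 library left out. For this and the lists below, the higher counts over all genes were 8337, 660 and 708 to 2793 in these settings. Lower counts were 0 with library totals, 3 with the replicate block and 0 to 3 with 1 library left out. Of the other claudins tested, 1 (Cldn9) was higher with library totals, another count of 1 came without the filter on low counts, and leaving out 1 library gave 0 to 1. Of adherens and desmosome genes 16 rose with library totals, 1 with hormone scaling and 1 to 14 with 1 library left out, while 0 fell with library totals or hormone scaling, 1 without the filter and 1 to 3 with 1 library left out. Of the 18 transcription factors tested 10 rose with library totals, beside 8337 of all 13996 genes, 1 with hormone scaling and 1 to 4 with 1 library left out. Lower factors numbered 0 with library totals or hormone scaling, 4 without the filter, 3 with DESeq2, 2 with limma-voom, 3 with the replicate block and 0 to 6 with 1 library left out. Their median, 0.00, was -0.0036 with DESeq2 size factors, -0.056 without the filter, -0.00097 with DESeq2, -0.012 with limma-voom, -0.024 with the replicate block and -0.28 to 0.054 with 1 library left out.

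Signs turned for Cldn9 (1.15 with library totals, 0.014 without the filter, 0.091 with limma-voom, -0.48 to 0.29 with 1 library left out), Klf4 (0.94 with library totals, 0.016 without the filter, 0.039 with hormone scaling, -0.30 to 0.23 with 1 library left out), Pkp4 (0.29 with library totals), Jam2 (0.52 with library totals) and Evpl (0.24 with library totals). Apart from Ocln, Jam2 and Ybx3, which passed with it, the replicate block changed no call of a named gene. Over single genes, 406 values kept direction and side of the threshold, 91 lost the call, 21 gained it and 15 turned sign. Apart from library totals, which move the median of all genes to 1.16, the cause of these changes was not tested. With 3 libraries a group and few reads, differences in Cldn1, Cldn2 and Cldn18 are poorly resolved. Cldn6, Cldn23 and Snai1 also had few reads at low glucose.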

Other observations

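Some claudins were seen in a handful of reads. Cldn18, a claudin of stomach and lung, had 1 count in all at low glucose and 10, 17 and 11 counts (38 in sum) at high glucose, a TMM-scaled ratio of 13.6 with an exact 95% interval of 2.29 to 549.7, for counting error only. The sum of the 7 gastric markers was lower at high glucose, with 578 to 1413 CPM at low and 82.5 to 338 CPM at high glucose. Nearly all of it was Tff2, with 575, 1410 and 1336 CPM at low and 80.2, 256 and 336 CPM at high glucose. The sum thus does not speak for the list. Of 3 tested 1 rose (Tff1) and 2 fell (Tff2 and Atp4a), beside 13.3% higher and 14.2% lower of all genes. Within the list Tff1 had 115 counts and Muc5ac 34 counts at high glucose, both were at 0 in the low glucose libraries, and Gkn1 and Gkn2 were at 0 in all 6. Tff2 fell by 2.31 and Atp4a by 2.07 on the log2 scale. The endothelial claudin gene Cldn5 had 6, 2 and 1 counts at low and 29, 7 and 5 counts at high glucose. Of the 10 endothelial markers 2 fell, beside 14.2% of all genes. The 10 summed to between 263 and 317 CPM at low and to 295, 140 and 202 CPM in high glucose replicates 1 to 3. This sum and Cldn5 were thus both highest among the high glucose libraries in replicate 1. Cldn34c1 had 17 counts in all, Cldn11 had 7 and Cldn13 had 2. The remaining 16 claudin genes had 0 counts in every library.

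Other cell type markers were summed too. Their counts of called genes stand beside 13.3% higher and 14.2% lower of all genes, and nothing is read from them. The 5 mesothelial markers summed to between 46.7 and 105 CPM at low and between 162 and 493 CPM at high glucose, with 1 higher (Krt19, also in the duct list) and 1 lower of 4 tested. Most of that sum was Krt19, with 78.8, 39.6 and 29.4 CPM at low and 142, 488 and 471 CPM at high glucose. Msln, Upk3b, Wt1 and Lrrn4 each had a lower mean at high than at low glucose. The 6 stellate markers summed to between 193 and 270 CPM at low and to 208, 32.7 and 53.1 CPM at high glucose, with 2 lower, and the 5 macrophage markers to between 114 and 169 CPM at low and to 158, 20.2 and 41.3 CPM at high glucose, with 1 higher. The 7 alpha and delta cell markers summed to between 4738 and 6796 CPM at low and between 2728 and 5112 CPM at high glucose, with 1 lower. High glucose replicate 1, the lowest of its group for 8 of the 9 listed claudins, had the highest sums of its group for the beta, alpha and delta, endothelial, stellate, macrophage and intestinal markers. It had the lowest sums for the acinar, duct, gastric and mesothelial markers. The mesothelial order was that of Krt19, while Msln, Upk3b, Wt1 and Lrrn4 were each highest of the group in that library. The part of these cells in the claudin levels was not tested.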
